A study of Mus musculus with 18 samples.

Results

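The transcripts described here are 219 non-coding RNAs that were detected in every sample of a macrophage stress experiment. They were chosen by the array's own annotation and its detection calls: the probe's accession had to be a RefSeq non-coding record (prefix NR_), and the spot had to be well above background in all 18 samples. For a sample hybridised on 2 arrays, the mean of the detection call had to be at least 0.5. Each accession was represented by its probe with the highest mean signal. Of 480 NR_ accessions on the array 219 (45.6%) met this rule, out of 33140 transcripts in all, while 138 were detected in no sample and 11 missed the rule by 1 sample. The rule fixed the level and the detection of these RNAs, so their levels are given as a description, and RNAs that fell to background in any condition are not among them. Just inside the rule lay 1700120K04Rik at a mean log2 signal of 4.62, Pisd-ps2 at 4.70 and Gm13375 at 4.88. Just outside it, detected in all samples but replicate 1 of wild type at low oxygen, lay Phxr4 at 5.21, Morrbid at 6.08 and Pdxk-ps at 6.18.

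The samples were bone-marrow-derived macrophages from male C57BL/6J mice aged 8 weeks, grown from femoral marrow for 7 days with macrophage colony stimulating factor. They formed 6 groups of 3: wild type and PHD3-/-, each as control (oxygen concentration 20, control feeding), at low oxygen (oxygen concentration 1, control feeding) and starved (oxygen concentration 20). The labels give oxygen no unit and do not say whether cells or mice were starved. PHD3, encoded by Egln3, uses oxygen to hydroxylate prolines of HIF, the hypoxia-inducible transcription factor, whose alpha subunit is then destroyed, and the series title names macrophage survival under stress as its subject. How the deletion was made is not stated in the labels.

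A long non-coding RNA is a transcript that is capped and usually polyadenylated like a messenger RNA but encodes no known protein; some act in the nucleus on splicing or on chromatin. Other non-coding transcripts matter for what they carry: snoRNA host genes hold small nucleolar RNAs in their introns, which guide chemical modification of ribosomal RNA, and microRNA hosts hold the hairpins of microRNAs. Pseudogenes are copies of genes that have lost their coding function, and small structured RNAs such as telomerase RNA or spliceosomal RNAs work as parts of enzymes. Many of these last RNAs carry no poly(A) tail, while labelling kits of the kind used here prime on poly(A).

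By RefSeq symbol and gene type the 219 RNAs comprised 88 long non-coding RNAs without a more specific class, 60 pseudogenes, 12 structured RNAs, 10 opposite-strand RNAs, 9 snoRNA hosts, 6 non-coding transcripts of protein-coding genes and 3 microRNA hosts. A symbol was found for 188 of them, and 31 keep their accession as a name. In what follows a level is the log2 signal minus the 75th percentile of that array, so 0 is the 75th percentile, and levels of different probes are not set against each other. A change is a difference of such levels between groups of 3. It is said to have risen or fallen where limma's moderated test, adjusted by Benjamini and Hochberg over all 21217 transcripts tested, gave an adjusted p under 0.05.

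The 20 arrays lay on 5 slides, with 56.1% to 65.4% of spots well above background and no saturated spot. All 9 macrophage markers on the array were detected in every sample, and Cd3d, Cd79a, Alas2, Mcpt8, Ms4a2 and Xcr1, markers of other blood cells, were detected in none. Neutrophil markers were present and moved with the conditions: their summed signal, in multiples of the array's 75th percentile, was 11.99 to 18.7 in wild-type controls, 6.10 to 9.67 at low oxygen and 7.16 to 9.29 when starved. In the knockout it was 9.67 to 15.8, 5.16 to 9.59 and 5.65 to 9.05. The 4 stromal markers were also detected in all samples and were lowest in starved cells, at 0.270 to 0.355 in wild type against 1.62 to 2.57 in controls. Their part in the results below was not tested. Egln3 itself read -3.10, -3.51 and -3.77 in wild-type controls and -3.88, -3.76 and -4.20 in controls labelled knockout, and rose at low oxygen by 6.36 and 6.79. It did not differ between genotypes past the threshold (-0.49 in controls, adjusted p 1.00 by limma). Where its probe lies relative to the deleted part is not given, so it does not check the labels. An earlier look at these data found 3 samples apart from the rest (wild-type control replicate 1, knockout control replicate 3 and starved wild-type replicate 3). Without them 95 and 86 of the 219 RNAs changed at low oxygen and 23 and 24 in starvation, in wild type and knockout, against 85, 83, 22 and 27 with them.

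Low oxygen changed a large part of these RNAs. In wild type 55 rose and 30 fell, 38.8% of the 219, and among all transcripts tested 38.8% passed (20.6% rising, 18.2% falling). In the knockout 50 rose and 33 fell, 37.9% of the 219, beside 39.8% of all transcripts (21.4% rising, 18.4% falling). The total is near the background in both genotypes. The median change was 0.10 in wild type and 0.05 in the knockout, beside 0.03 in both for all transcripts. Rises of at least 2-fold numbered 17 and 19, and such falls 6 and 8. The groups of 3 did not overlap for 112 of the 219 RNAs in wild type (49.9% of all transcripts) and 98 in the knockout (49.1%). With normexp correction of the median spot signal in place of the scanner's processed signal, 26 rose and 9 fell in wild type and 24 rose and 9 fell in the knockout. The share of all transcripts past the threshold with normexp is not given here or below. Whether such a drop is particular to these RNAs thus cannot be told from the counts. In bulk RNA, a smaller share of cells that make an RNA and less of it per cell cannot be told apart.

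**Figure D1:**
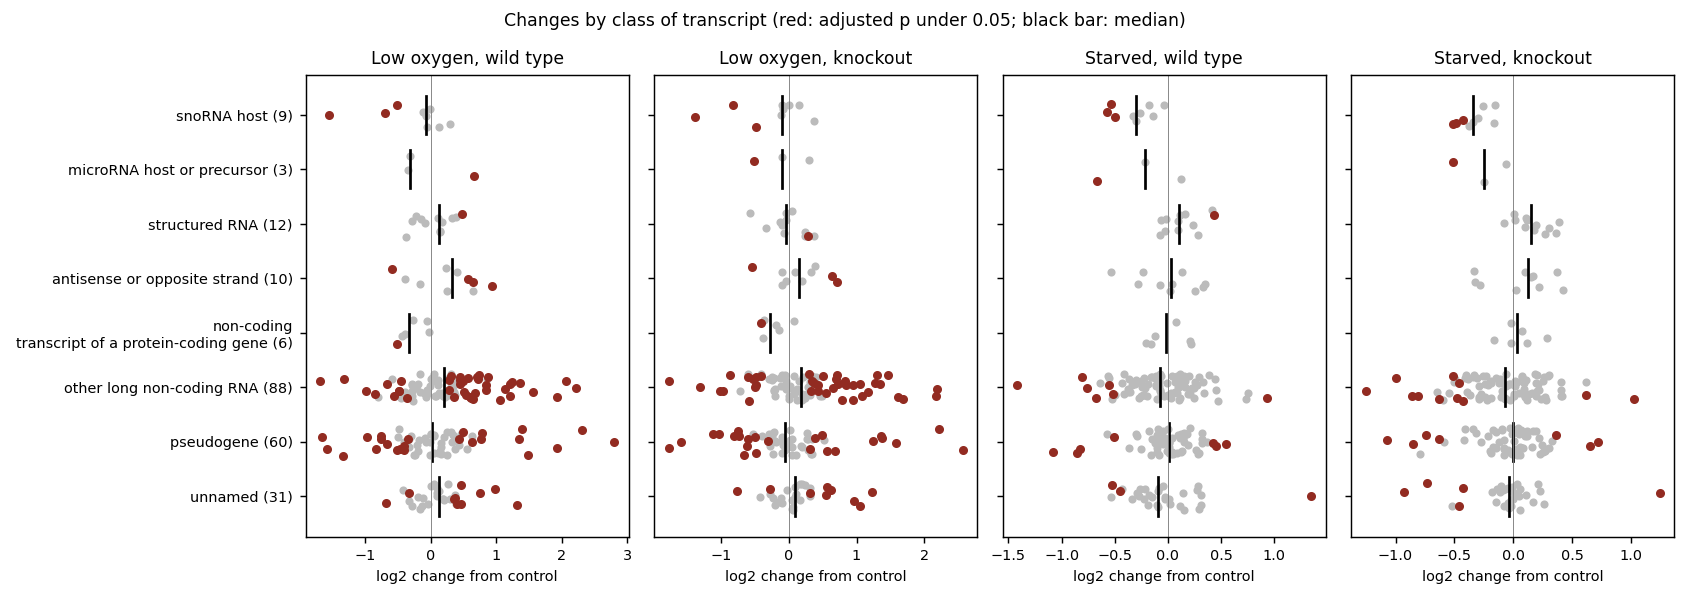
Log2 change of each of the 219 RNAs (points) by class in the 4 stress comparisons, with red points past an adjusted p of 0.05 and a black bar at each class's median. Changes reach 2.80 and -1.77 at low oxygen and stay between -1.42 and 1.35 in starvation, and none of the 9 RNAs classed as snoRNA hosts by symbol has a red point above 0.

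Gm13315, a pseudogene, showed the largest rise. It read 2.63, 2.42 and 2.52 in wild-type controls and 5.32, 5.56 and 5.09 at low oxygen, and in the knockout 2.65, 2.79 and 2.23 against 5.27, 5.07 and 5.03. Every low oxygen sample lay above every control of both genotypes. The change was 2.80 ± 0.16 (SE, 6.96-fold, adjusted p 1.05e-08 by limma) in wild type and 2.57 (adjusted p 2.09e-08) in the knockout, and starved wild-type cells, at 2.40 to 2.81, overlapped the controls.

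1700001L05Rik, a long non-coding RNA, read -2.61, -2.44 and -2.39 in wild-type controls and 0.08, -0.49 and -0.37 at low oxygen. In the knockout the values were -2.48, -2.66 and -2.64 against -0.29, -0.87 and -0.11. The groups lay apart in both genotypes, with changes of 2.22 ± 0.17 (adjusted p 1.48e-07) and 2.17 (1.73e-07) by limma. Its second probe rose alike, by 2.41 and 2.54.

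Gm48957, another long non-coding RNA, was dim and rose from -4.80, -4.55 and -4.65 to -2.67, -2.52 and -2.60 in wild type, by 2.07, and by 2.19 in the knockout. AI854703, an annotated pseudogene, rose from -3.81, -3.72 and -3.82 to -1.54, -1.48 and -1.43, by 2.30, and by 2.22 in the knockout. All low oxygen samples of both RNAs were above their controls. The probes of AI854703 disagreed, since a second probe for the same accession changed by -0.41 and -0.34 and passed in neither genotype. The same held for Thap6, whose chosen probe rose by 1.39 and 1.36 and whose second probe changed by 0.11 and -0.01. For Gm5069, by contrast, the 3 probes rose together: in wild type the changes were 1.93, 1.52 and 1.77, and knockout samples gave 1.58, 1.40 and 1.55. With normexp correction, which adds an offset of 50 and so compresses dim values, AI854703 rose by 1.41 and 1.57 and Gm48957 by 1.29 and 1.34, still past the threshold. Other large rises were those of 2610035D17Rik (1.93 and 1.68), the pseudogene Gm6498 (1.49 and 1.38) and B130006D01Rik (1.25 and 1.61). The knockout call of 2610035D17Rik was lost with normexp correction (0.90, adjusted p 0.0704).

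**Figure D2:**
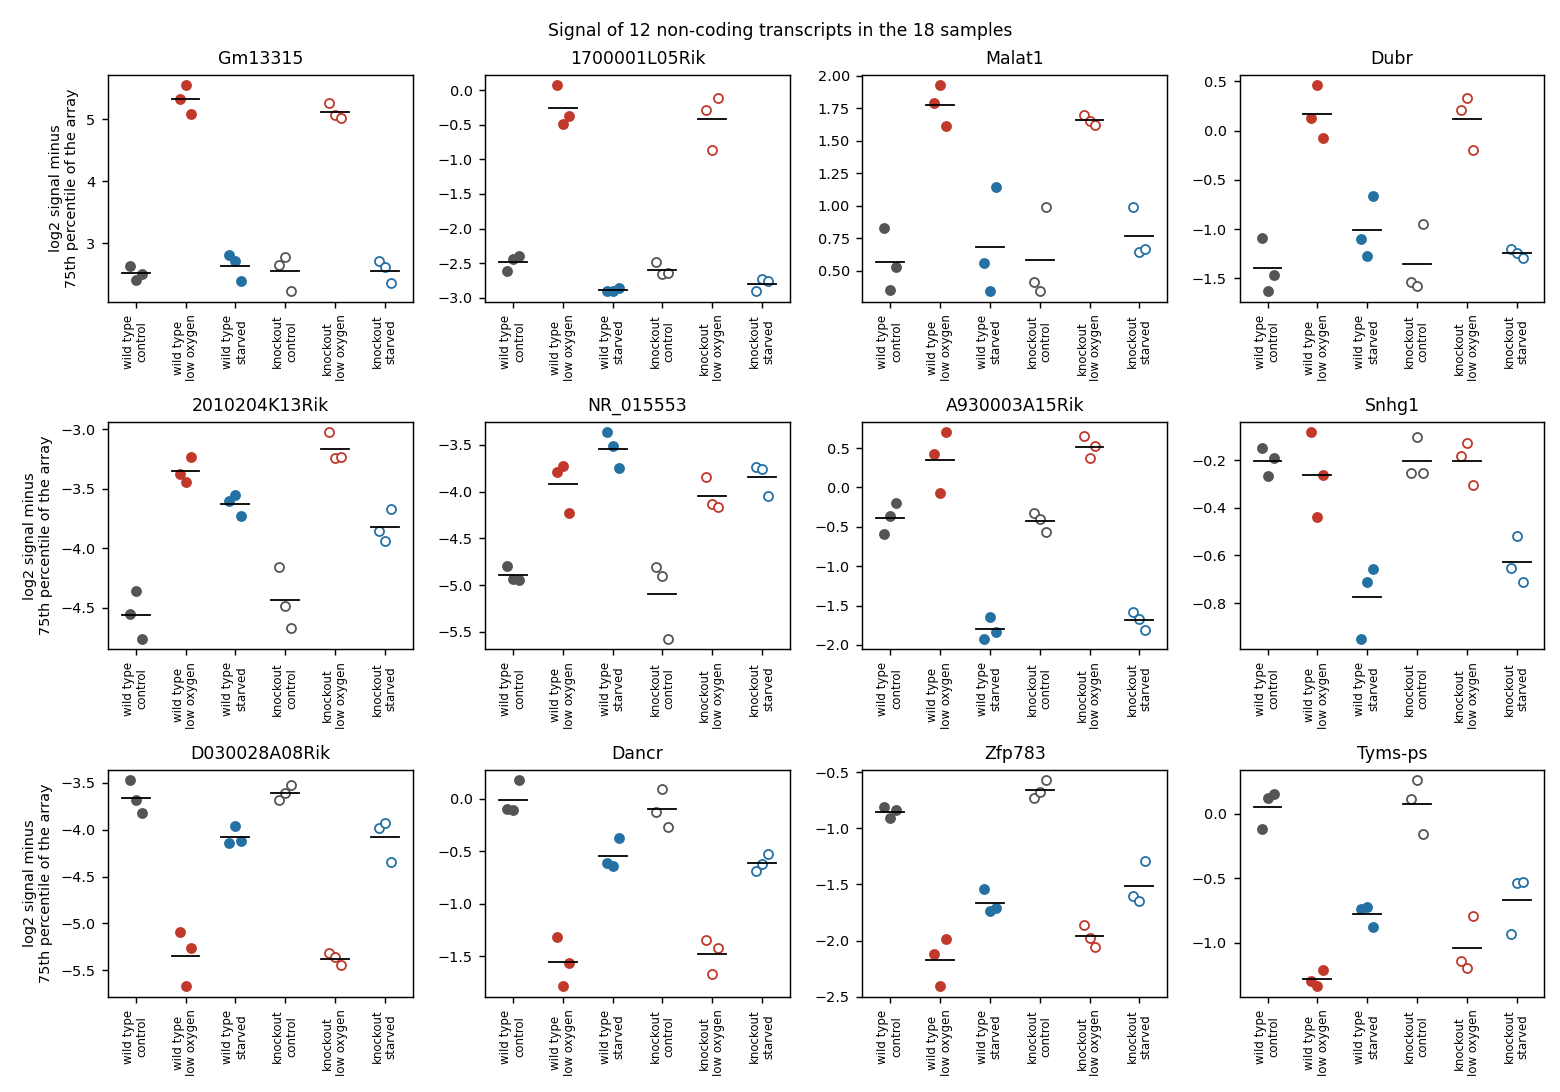
Log2 signal minus the array's 75th percentile in each of the 18 samples for 12 of the RNAs, with 3 points a group, filled for wild type and open for knockout, and a bar at the group's mean. Gm13315, 1700001L05Rik, Malat1 and Dubr are high in the low oxygen groups alone, D030028A08Rik and Dancr are lowest there, and A930003A15Rik is high at low oxygen and low in starvation.

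Among well-studied long non-coding RNAs, Malat1, an abundant nuclear RNA of splicing speckles, rose at low oxygen. It read 0.82, 0.35 and 0.53 in wild-type controls and 1.79, 1.93 and 1.61 at low oxygen, and 0.41, 0.35 and 0.99 against 1.70, 1.65 and 1.62 in the knockout. The groups did not overlap, and the change was 1.21 ± 0.21 (adjusted p 0.000298) in wild type and 1.07 (0.000702) in the knockout by limma. Neat1, the scaffold RNA of paraspeckles, read 4.96, 4.82 and 4.85 in wild-type controls and 5.01, 4.56 and 5.02 at low oxygen, so its groups overlapped. Its changes were -0.02 (adjusted p 0.938) and -0.20 (adjusted p 0.3), and neither passed. Of 12 paraspeckle proteins tested, 1 rose and 1 fell in wild type and 0 rose and 2 fell in the knockout. Of all transcripts 38.8% and 39.8% were called.

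Dubr, an RNA described in muscle differentiation, read -1.09, -1.63 and -1.47 in wild-type controls and 0.13, 0.47 and -0.08 at low oxygen, and -1.54, -1.58 and -0.94 against 0.21, 0.33 and -0.19 in the knockout. It rose by 1.57 ± 0.21 (adjusted p 4.12e-05) and 1.47 (6.75e-05) by limma, with the groups apart in both genotypes. Tug1, an RNA needed for male fertility in mice, has 2 accessions. One (NR_002322) rose by 0.88 and 0.66 and the other (NR_002321) by 0.45 in wild type, with 0.28 (adjusted p 0.145) in the knockout. These Tug1 calls rest on few samples: the wild-type call of NR_002321 was lost without replicate 2 at low oxygen or replicate 1 or 3 of the controls (adjusted p 0.0639 to 0.116) and with normexp correction (0.138), and the knockout call of NR_002322 without replicate 1 or 2 at low oxygen or replicate 1 or 2 of the controls (0.0558 to 0.0862). Peg13, an imprinted RNA expressed from the paternal copy, rose by 0.61 and 0.70, and the transcript of the Gt(ROSA)26Sor locus, widely used for inserting transgenes, rose by 0.71 and 0.84. Pvt1, the neighbour of the Myc gene, fell. It read 0.56, 0.22 and 0.36 in wild-type controls and -0.22, -0.53 and -0.66 at low oxygen, a change of -0.85 ± 0.22 (adjusted p 0.0073), with -0.98 (0.00268) in the knockout. The imprinted RNAs Kcnq1ot1 and Airn, the Pumilio-binding RNA Norad and the X-linked Ftx passed in neither genotype.

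The largest falls at low oxygen were those of D030028A08Rik, Tubb2a-ps2, 2700099C18Rik, Dancr, Tyms-ps and Zfp783. D030028A08Rik read -3.47, -3.68 and -3.83 in wild-type controls and -5.09, -5.67 and -5.27 at low oxygen, with all knockout controls (-3.68, -3.61 and -3.52) likewise above the knockout samples at low oxygen (-5.32, -5.36 and -5.45). The change was -1.68 and -1.77. With normexp correction it was -0.74 (adjusted p 0.0802) and -0.82 (0.0505) and no longer passed.

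Zfp783, annotated as a long non-coding RNA, fell in both stresses. It read -0.81, -0.91 and -0.84 in wild-type controls, -2.12, -2.41 and -1.98 at low oxygen and -1.54, -1.74 and -1.71 when starved. The 3 wild-type groups did not overlap. Low oxygen lowered it by 1.32 in wild type (log2 change -1.32, adjusted p 7.36e-07) and by 1.30 in the knockout (-1.30, 7.82e-07), and the starvation changes were -0.81 (0.000349) and -0.86 (0.000213) by limma.

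The promoters of 6 of these RNAs are shown because HIF, the transcription factor that PHD enzymes restrain, binds DNA at a short core with the letters ACGTG or GCGTG. Sequences are from RefSeq on build GRCm38.p6, 250 bases before to 50 after the annotated start, on the strand of the gene. Capitals mark every ACGTG or GCGTG on either strand, where a palindromic CACGTG holds 2 overlapping matches. 1700001L05Rik (chr15:83367248-83367547, minus strand) holds 5 matches, Dubr (chr16:50732724-50733023, minus strand) 3 and Malat1 (chr19:5802623-5802922, minus strand) 1, and all 3 rose at low oxygen. 2610035D17Rik (chr11:113201789-113202088, minus strand) also rose and holds 0. Of those that fell, Dancr (chr5:74092810-74093109, plus strand) holds 1 and Zfp783 (chr6:47942925-47943224, plus strand) 2.
1700001L05Rik: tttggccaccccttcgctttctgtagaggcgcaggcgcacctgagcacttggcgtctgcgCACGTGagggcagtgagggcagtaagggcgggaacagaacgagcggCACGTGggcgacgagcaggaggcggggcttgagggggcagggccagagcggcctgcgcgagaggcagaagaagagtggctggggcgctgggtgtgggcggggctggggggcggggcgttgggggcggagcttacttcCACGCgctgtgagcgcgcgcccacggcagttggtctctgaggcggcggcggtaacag
Dubr: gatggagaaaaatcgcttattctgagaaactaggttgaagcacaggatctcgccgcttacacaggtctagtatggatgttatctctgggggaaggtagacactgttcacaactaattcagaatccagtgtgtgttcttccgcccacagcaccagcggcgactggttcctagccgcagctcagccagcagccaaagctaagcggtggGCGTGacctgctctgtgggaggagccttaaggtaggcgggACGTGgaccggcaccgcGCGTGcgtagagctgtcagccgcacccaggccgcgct
Malat1: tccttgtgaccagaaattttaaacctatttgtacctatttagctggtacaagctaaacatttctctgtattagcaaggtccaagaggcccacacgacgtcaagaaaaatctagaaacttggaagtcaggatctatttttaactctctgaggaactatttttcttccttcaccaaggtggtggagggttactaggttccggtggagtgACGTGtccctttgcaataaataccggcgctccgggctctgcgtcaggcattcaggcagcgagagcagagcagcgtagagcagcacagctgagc
2610035D17Rik: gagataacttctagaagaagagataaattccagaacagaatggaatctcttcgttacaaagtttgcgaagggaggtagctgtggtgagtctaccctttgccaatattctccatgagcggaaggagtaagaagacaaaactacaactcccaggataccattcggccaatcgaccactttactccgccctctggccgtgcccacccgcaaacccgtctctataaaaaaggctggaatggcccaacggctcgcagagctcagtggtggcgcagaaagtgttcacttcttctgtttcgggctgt
Dancr: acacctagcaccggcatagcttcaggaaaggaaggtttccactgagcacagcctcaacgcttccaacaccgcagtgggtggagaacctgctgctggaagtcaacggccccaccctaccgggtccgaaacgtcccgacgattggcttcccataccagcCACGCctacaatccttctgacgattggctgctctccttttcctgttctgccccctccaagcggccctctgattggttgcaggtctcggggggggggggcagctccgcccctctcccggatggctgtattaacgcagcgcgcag
Zfp783: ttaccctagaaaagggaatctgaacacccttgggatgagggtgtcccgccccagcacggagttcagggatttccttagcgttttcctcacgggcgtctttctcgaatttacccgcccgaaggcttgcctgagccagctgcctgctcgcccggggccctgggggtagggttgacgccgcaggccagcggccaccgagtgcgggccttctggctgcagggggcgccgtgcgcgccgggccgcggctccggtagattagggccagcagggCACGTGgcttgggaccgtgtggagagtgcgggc
A promoter was listed for 98 of the 219 RNAs, and 60 of them (61.2%) hold at least 1 match, beside 11836 of 27025 (43.8%) of all promoters of this length. The share was 15 of 23 (65.2%) for RNAs that rose in both genotypes, 6 of 12 (50%) for those that fell in both, 6 of 10 (60%) for those called in 1 genotype and 33 of 53 (62.3%) for those called in neither. The RNAs that rose thus differ little in this share from those not called. CpG content, which goes with the chance of finding these letters, moved with the groups as well: the median number of CpG was 29 in the promoters of those that rose, 15 in those that fell, 16 in those not called and 7 in all promoters. A match is not a binding site, and binding was not measured here.

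Protein-coding genes beside the leading RNAs were read from the same RefSeq table, a choice made after the values were seen. Gm6498 overlaps Peli2, a ubiquitin ligase of Toll-like receptor signalling, and Peli2 rose by 3.16 and 3.53 at low oxygen. Dubr lies next to Cblb, a ubiquitin ligase that restrains immune receptor signalling, which rose by 1.11 and 1.32. For others a neighbour did not move with them. Slc39a11, a zinc transporter beside 2610035D17Rik, changed by 0.04 and 0.00, Sp2, a transcription factor overlapping D030028A08Rik, by -0.11 and -0.05, and neither passed. 1700001L05Rik lies between Arfgap3, which rose by 0.35 and 0.36, and Pacsin2, which fell (-0.47 and -0.41). Gm9199, which fell (-0.83 and -0.74), lies next to Rcbtb2, which rose by 2.18 and 2.01, and overlaps Cysltr2, a leukotriene receptor gene, which fell (-0.54, adjusted p 0.0187, and -0.69, 0.00451).

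Of the 60 pseudogenes, 11 rose and 13 fell at low oxygen in each genotype, beside 38.8% of all transcripts called in wild type and 39.8% in the knockout. In starvation 3 rose and 4 fell in each, beside 12.5% and 13.5%. These shares are near the background. Where the symbol names a parent gene, the parent's own probe can be read beside it, and cross-hybridisation between a pseudogene's probe and its parent's RNA was not tested. Tubb2a-ps2 read -0.02, 0.05 and 0.27 in wild-type controls and -1.61, -1.53 and -1.54 at low oxygen, and fell (-1.66 and -1.77 in wild type and knockout). Its parent Tubb2a, a beta-tubulin, fell as well (-1.23 and -1.40). Tyms-ps differed from its parent. It read -0.12, 0.12 and 0.15 in wild-type controls, -1.29, -1.34 and -1.21 at low oxygen and -0.74, -0.72 and -0.88 when starved, with every stressed sample below every control. It fell by low oxygen (-1.33 and -1.11) and by starvation (-0.83, adjusted p 0.00114, and -0.74, 0.00264). Tyms, thymidylate synthase, changed by 0.06 and 0.25 at low oxygen, not past the threshold, and rose in starvation by 0.97 (adjusted p 0.000101) and 0.90 (0.000165).

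**Figure D3:**
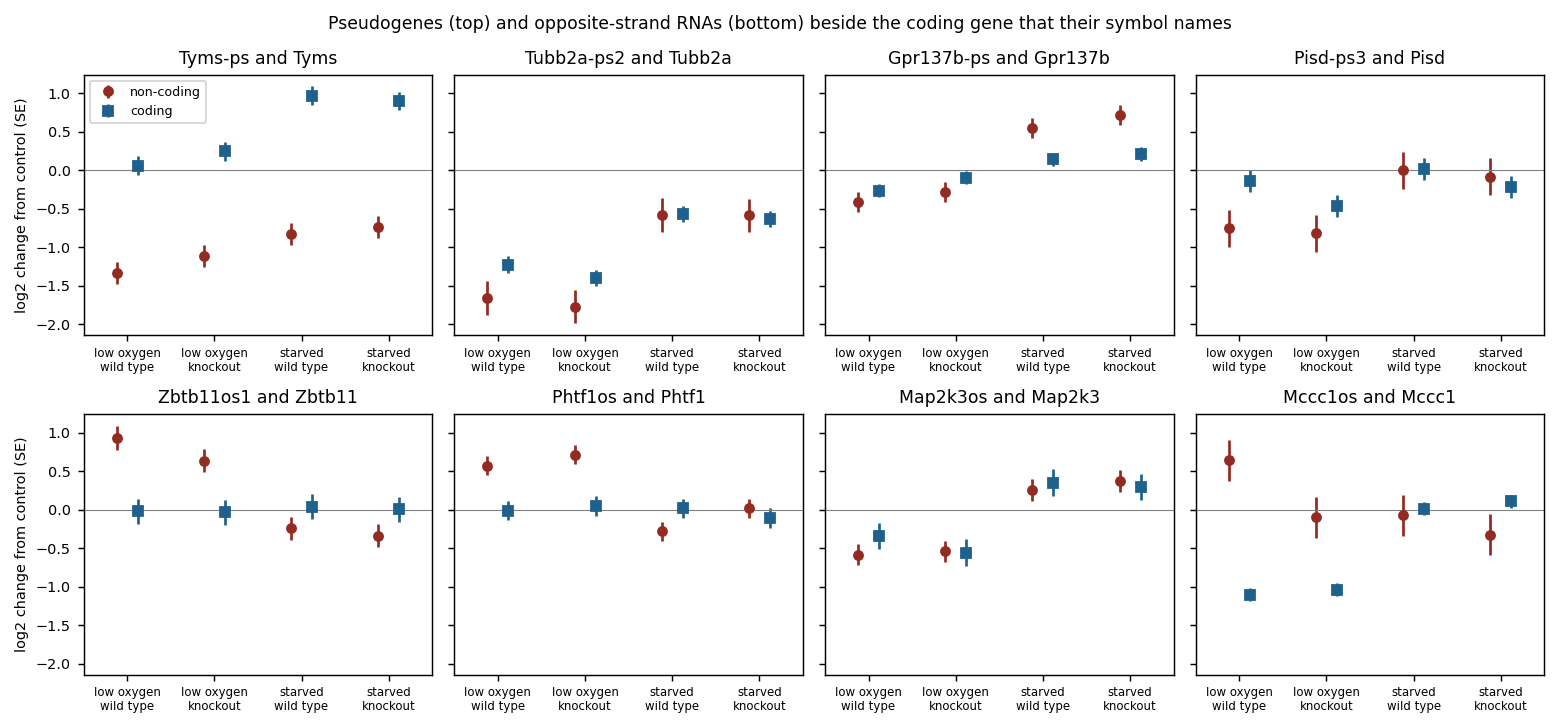
Log2 change in the 4 stress comparisons, with its SE as bars, of 4 pseudogenes (top) and 4 opposite-strand RNAs (bottom). Each is shown beside the coding gene that its symbol names. Tubb2a-ps2 and Tubb2a lie on the same side of 0, Tyms-ps and Tyms lie on opposite sides in starvation, and Zbtb11 and Phtf1 stay near 0 where their opposite-strand RNAs are above it.

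Opposite-strand RNAs are transcribed against a coding gene, whose name they carry. At low oxygen 3 of 10 rose and 1 fell in wild type, and 2 rose and 1 fell in the knockout. This is near the background, as 38.8% and 39.8% of all transcripts were called. Zbtb11os1 read -0.87, -1.14 and -1.08 in wild-type controls and 0.01, -0.19 and -0.12 at low oxygen, and rose by 0.93 and 0.64. Zbtb11, a zinc finger gene, changed by -0.02 and -0.04. Phtf1os rose by 0.57 and 0.71 while Phtf1 changed by -0.01 and 0.05, neither past the threshold. Map2k3os fell (-0.59 and -0.54) and so did the kinase gene Map2k3 in the knockout (-0.56, adjusted p 0.0169), with -0.34 (0.129) in wild type. Mccc1os did not pass (0.64, adjusted p 0.0695, and -0.10), while Mccc1, a subunit of the leucine-degrading carboxylase, fell (-1.11 and -1.04). With normexp correction the calls of Phtf1os and Map2k3os were lost (adjusted p 0.0567 to 0.243). In starvation 0 of 10 passed by limma, beside 12.5% and 13.5% of all transcripts. At an unadjusted p under 0.05, 2 of the 10 passed in each genotype, beside 23.8% and 25.4% of all transcripts. Rab10, a small GTPase with an opposite-strand RNA on the list, fell (-0.71 and -0.57).

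The 9 RNAs classed by their symbol as snoRNA hosts fell or did not pass. At low oxygen 3 fell in each genotype, Dancr, Snhg17 and Snhg10, and in starvation 3 fell in each, Snhg1, Snhg16 and Dancr, with 0 of the 9 rising in any of the 4 comparisons. Among all transcripts 18.2% and 18.4% fell at low oxygen and 5.99% and 6.35% in starvation. RefSeq places 8 snoRNA genes within Snhg1, 4 within Snhg12, 3 within Snhg16, 2 each within Snhg3, Snhg7 and Snhg17 and 1 each within Snhg6 (Snord87), Dancr (Snora26) and Snhg10 (Scarna13). The array measured the spliced hosts and not these snoRNAs. The class rests on symbols, and RefSeq places snoRNA genes within 4 further RNAs of the 219. 2410006H16Rik, with 3 of them (Snord49a, Snord49b and Snord65), rose at low oxygen by 0.31 (adjusted p 0.0491) and 0.43 (0.00858). The wild-type call was lost in 22 of 29 alternatives, among them those without any 1 of 14 samples (0.0508 to 0.220, with changes of 0.19 to 0.33), while the knockout call was lost in 0 of 29. In starvation it changed by -0.37 (0.0517) and -0.27 (0.163), not past the threshold. Gm4759, a pseudogene with 1, fell at low oxygen (-0.34, 0.00883, and -0.60, 0.000116), the wild-type call being lost with normexp correction (0.197). 1110038B12Rik, with 2, and 4833422C13Rik, with 1, passed in none of the 4 comparisons.

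The hosts' first transcribed bases are shown because transcripts that begin with a run of C and T, the terminal oligopyrimidine tract of ribosomal protein and many snoRNA host messages, are translated under control of the growth regulator mTOR. Each line gives the first 20 bases from the annotated start on GRCm38.p6 (RefSeq), with the longest run of C and T in capitals.
Dancr: gggggcagctccgCCCCTCT
Snhg1: ctcaTTTTTCCTTgttcggg
Snhg10: gcggtgaTTgctacggtaac
Snhg12: TTTCTCgcttcatccgcggt
Snhg16: gatctcgTCCTTTCCgaggt
Snhg17: gtgaagaccacagTTTCCTg
Snhg3: gaCTTCCgggcgttacttaa
Snhg7: CTCTCggcagccatggcggc
Within these 20 bases the runs are 9 bases in Snhg1, 8 in Snhg16, 7 in Dancr, 6 in Snhg12 and Snhg17, 5 in Snhg3 and Snhg7 and 2 in Snhg10. Dancr's run is cut by the end of the 20 bases and goes on in its promoter shown above. The hosts that fell in starvation are the 3 with the longest runs, an ordering noticed after the values were seen. A run of at least 7 bases was present in 3 of 8 hosts (37.5%) and in 3019 of 27025 promoters (11.2%). The run begins at base 1 in Snhg12 and Snhg7 alone, and these hosts passed in no comparison with controls. It begins at base 5 in Snhg1, 8 in Snhg16 and 14 in Dancr and Snhg17. No host that fell in starvation thus begins with its longest run at the annotated start. Annotated starts can be off by some bases, and the true first base was not measured.

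Dancr, named for its role in keeping progenitor cells undifferentiated, fell most of the 9 at low oxygen. It read -0.10, -0.11 and 0.18 in wild-type controls, -1.31, -1.79 and -1.56 at low oxygen and -0.61, -0.64 and -0.37 when starved, and in the knockout -0.12, 0.09 and -0.27, then -1.34, -1.67 and -1.42, then -0.69, -0.62 and -0.52. The 3 conditions did not overlap in either genotype. At low oxygen it fell by 1.54 on the log2 scale (-1.54 ± 0.14 SE, adjusted p 7.72e-07) in wild type and by 1.38 (-1.38, 2.26e-06) in the knockout, and in starvation the changes were -0.53 (0.0216) and -0.51 (0.0249) by limma.

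Snhg1, the host with the most snoRNAs, did not follow oxygen. Its wild-type controls read -0.15, -0.27 and -0.19, the low oxygen samples -0.08, -0.44 and -0.26, and the starved samples -0.95, -0.71 and -0.66. Knockout values were -0.25, -0.10 and -0.25, then -0.18, -0.13 and -0.31, then -0.65, -0.52 and -0.71. Starved samples lay below all others, with changes of -0.57 (adjusted p 0.00242) and -0.42 (0.0162), while the low oxygen changes were -0.06 and -0.00 and did not pass. Snhg16 showed 0.89, 0.77 and 0.85 in wild-type controls, 0.86, 0.81 and 0.82 at low oxygen and 0.34, 0.06 and 0.61 when starved. Its starvation changes were -0.50 (0.0171) and -0.48 (0.0206), and its second probe fell too (-0.38 and -0.44).

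**Figure D4:**
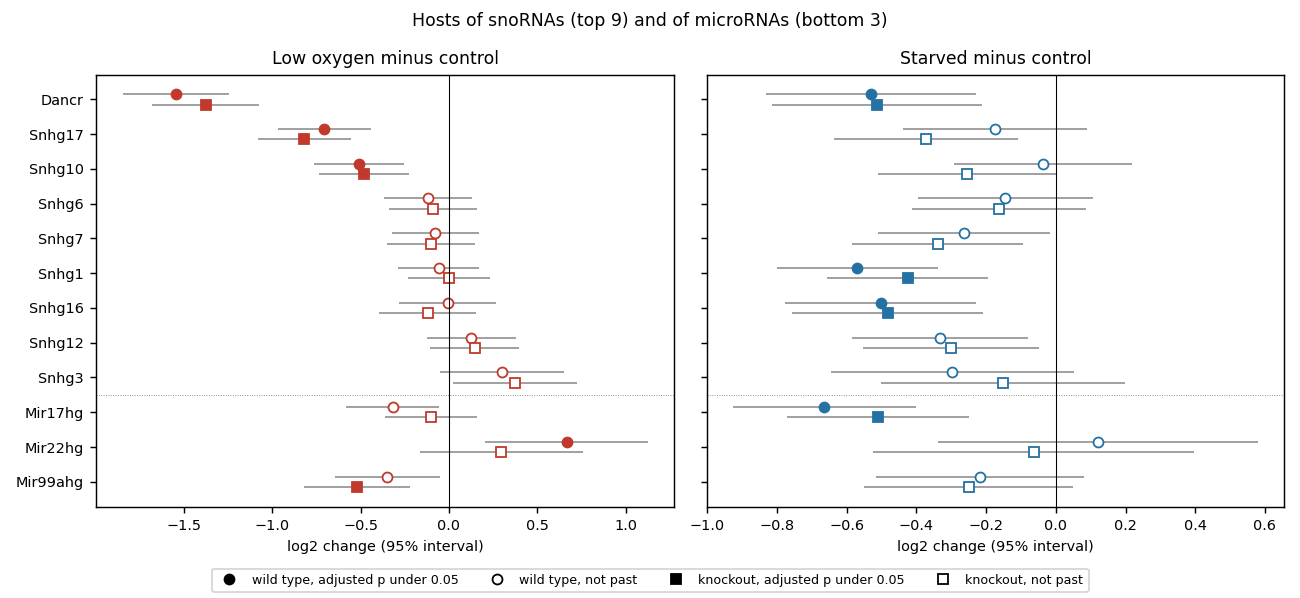
Log2 change with its 95% interval for the 9 snoRNA hosts and 3 microRNA hosts at low oxygen (left) and in starvation (right), circles for wild type, squares for knockout, filled where the adjusted p is under 0.05. Dancr lies far below 0 at low oxygen, where Snhg1 and Snhg16 lie near 0, and all 3 lie below 0 in starvation.

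The starvation calls of these hosts rest on few samples. Dancr's was lost without any 1 of 3 samples in wild type (replicate 3 of the controls or replicate 1 or 2 of the starved cells, adjusted p 0.0845 to 0.110) and any 1 of 4 in the knockout (replicate 1 or 2 of the knockout controls or replicate 1 or 2 of the starved knockout, 0.0582 to 0.115). Snhg16's was lost without any 1 of 4 in wild type (replicate 1 or 3 of the wild-type controls or replicate 1 or 2 of starved wild type, 0.0553 to 0.0889) and in the knockout (replicate 2 or 3 of the knockout controls or replicate 1 or 2 of the starved knockout, 0.0530 to 0.0881), and Snhg1's in the knockout without any 1 of 3 (replicate 2 of the knockout controls or replicate 1 or 3 of the starved knockout, 0.0516 to 0.0734). With normexp correction the starvation calls of Dancr in both genotypes and of Snhg1 and Snhg16 in the knockout were lost, as were the low oxygen calls of Snhg17 and Snhg10 in both (adjusted p 0.0519 to 0.235). Neutrophil and stromal markers fell in starvation as well (5 and 3 genes in wild type, of 7 and 4 measured), and their part in these falls was not tested.

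Snhg17 fell at low oxygen (-0.70 and -0.82) and Snhg10 did too (-0.51 and -0.48), while in starvation neither passed. Snhg3, Snhg6, Snhg7 and Snhg12 passed in none of the 4 comparisons with controls. Of the 17 snoRNP proteins, which package and act with snoRNAs, 10 fell and 0 rose at low oxygen in each genotype, with a median change of -0.42 and -0.35. Of all transcripts 18.2% and 18.4% fell, and their median was 0.03 in both. In starvation 5 and 6 of the snoRNP proteins fell and 0 rose, with medians of -0.23 and -0.33. Of all transcripts 5.99% and 6.35% fell, with medians of 0.02 and 0.01. Dkc1, the pseudouridine synthase of box H/ACA particles, fell at low oxygen (-1.45 and -1.25), as did Nop58 (-0.58 and -0.33) and the methyltransferase fibrillarin, Fbl (-0.41 and -0.44). The 79 cytosolic ribosomal protein genes, whose messages begin with such a tract, depended on the scaling. With the 75th percentile 16 rose and 1 fell at low oxygen in wild type and 7 rose and 2 fell in the knockout, while with quantile normalization 0 rose and 4 fell, and 0 rose and 3 fell, so no direction is given for them. In starvation 0 of 79 passed by limma, and with quantile normalization 1 fell in wild type. At an unadjusted p under 0.05 by limma, 2 of the 79 passed in wild type and 4 in the knockout, beside 23.8% and 25.4% of all transcripts. Of the 17 snoRNP proteins, with quantile normalization 10 and 9 fell at low oxygen and 4 and 7 in starvation, and with normexp correction 7 and 5, and 2 and 1, with 0 rising in any of these. Of 20 factors of nonsense-mediated decay, the pathway that clears many snoRNA host transcripts, 3 rose and 4 fell at low oxygen in wild type, 5 rose and 3 fell in the knockout, and 1 fell in starvation in each genotype. Of 19 components of the nuclear RNA exosome, 2 rose and 5 fell in wild type and 3 rose and 5 fell in the knockout at low oxygen. Calls in either direction made up 38.8% and 39.8% of all transcripts at low oxygen, and 12.5% and 13.5% in starvation.

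The RNAs classed by symbol as microRNA hosts are Mir17hg, Mir22hg and Mir99ahg. Outside that class RefSeq places mature microRNAs, counted on either strand, within or within 1000 bases of D7Ertd143e (17), Ftx (5), Dleu2 (4), Snhg10 (2), Dubr (1) and E130112N10Rik (1). The microRNA at Dubr lies on the strand opposite to Dubr, and those at D7Ertd143e and Ftx lie on both strands, so a count by position is not a count of microRNAs that the RNA carries. D7Ertd143e, Ftx and E130112N10Rik passed in none of the 4 comparisons with controls. Mature microRNAs of Mir17hg, Dleu2 and Mir22hg are shown with their seed, bases 2 to 8, in capitals, because microRNAs with the same seed recognise the same sites (RefSeq, GRCm38.p6). Within 1000 bases of Mir17hg lie 11 mature microRNAs with 9 seeds, and the best-known arms are given.
miR-17-5p: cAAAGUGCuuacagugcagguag
miR-20a-5p: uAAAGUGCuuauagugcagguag
miR-18a-5p: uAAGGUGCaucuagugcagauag
miR-19a-3p: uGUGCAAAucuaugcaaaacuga
miR-19b-3p: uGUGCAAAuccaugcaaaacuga
miR-92a-3p: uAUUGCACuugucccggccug
Dleu2 carries a pair with a shared seed, and Mir22hg carries a single hairpin.
miR-15a-5p: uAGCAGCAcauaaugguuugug
miR-16-5p: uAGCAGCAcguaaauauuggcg
miR-22-3p: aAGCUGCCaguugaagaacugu
miR-17-5p and miR-20a-5p share the seed AAAGUGC, the pair of miR-19 arms shares GUGCAAA and the Dleu2 pair shares AGCAGCA. Mature microRNAs were not measured by these probes.

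Mir17hg, the host of this growth-promoting cluster, fell in starvation. It read -0.82, -0.68 and -0.81 in wild-type controls, -0.78, -1.31 and -1.18 at low oxygen and -1.52, -1.44 and -1.34 when starved, with knockout values of -0.89, -0.72 and -0.86, then -1.05, -0.87 and -0.85, then -1.45, -1.25 and -1.31. Every starved sample was below every other sample of its genotype. The starvation changes were -0.66 (adjusted p 0.00196) and -0.51 (0.0115) by limma, and the low oxygen changes of -0.32 (0.0528) and -0.10 did not pass. The knockout call was lost without replicate 2 of the knockout controls or replicate 1 of the starved knockout (adjusted p 0.0521 to 0.0545), and with normexp correction both calls were (0.0797 and 0.0930). Mir22hg rose at low oxygen in wild type (0.67, adjusted p 0.0236), with 0.30 (0.302) in the knockout, and the wild-type call was lost without replicate 1 or 3 at low oxygen or replicate 3 of the controls (0.0580 to 0.0918). Mir99ahg fell at low oxygen in the knockout (-0.52, adjusted p 0.00796), with -0.35 (0.0620) in wild type, a call that was lost with normexp correction (0.594). Dleu2 rose at low oxygen by 0.68 and 0.71, with both calls lost under normexp correction (0.0947 and 0.0657). Of 16 genes of microRNA processing, 2 rose and 5 fell at low oxygen in wild type, 3 rose and 5 fell in the knockout, and 1 fell in starvation in each genotype. Calls in either direction made up 38.8% and 39.8% of all transcripts at low oxygen, and 12.5% and 13.5% in starvation.

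Structured RNAs hardly passed, beside 38.8% and 39.8% of all transcripts at low oxygen and 12.5% and 13.5% in starvation. Of 12, Rnu1b6, a U1 spliceosomal RNA, rose at low oxygen in wild type (0.48, adjusted p 0.0350) and Rnu12, the U12 RNA of the minor spliceosome, in the knockout (0.29, 0.0392). In starvation Rprl2, a ribonuclease P RNA-like gene, rose in wild type (0.43, 0.0413), a call that was lost without any 1 of 9 samples, among them each wild-type control and each starved wild-type sample (0.0502 to 0.152). Changes of the 12 lay between -0.38 and 0.48 and between -0.58 and 0.38 at low oxygen. The RNA of telomerase, Terc, at -0.38 (0.337) and -0.58 (0.139), the RNase MRP RNA Rmrp and the RNase P RNA Rpph1 passed in none of the 4 comparisons with controls. The call of Rnu1b6 was lost without replicate 2 or 3 of the wild-type controls or replicate 1, 2 or 3 of wild type at low oxygen (0.0526 to 0.134) and that of Rnu12 without replicate 2 or 3 of the knockout controls or replicate 1, 2 or 3 of the knockout at low oxygen (0.0587 to 0.160), and both were lost with normexp correction, with no filter on dim probes and with a slide block, that of Rnu12 also with quantile normalization, with the authors' values and without the 3 samples that stood apart. Of the 6 non-coding transcripts of protein-coding genes, 1 fell at low oxygen in each genotype, that of Prmt6, an arginine methyltransferase (-0.52 and -0.42), calls that were lost with normexp correction.

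Starvation changed fewer of the 219 RNAs. In wild type 6 rose and 16 fell (10.05%; all transcripts 12.5%, with 6.49% rising and 5.99% falling), and in the knockout 6 rose and 21 fell (12.3%; all transcripts 13.5%, with 7.15% rising and 6.35% falling). The total is near the background, with more falls than rises where all transcripts rose and fell about equally. With normexp correction 4 rose and 11 fell in wild type and 2 rose and 7 fell in the knockout. Only 1 RNA rose and 2 fell by at least 2-fold in wild type, and 2 rose and 2 fell in the knockout. The groups of 3 did not overlap for 66 of the 219 RNAs in each genotype (29.7% of all transcripts in wild type and 30.8% in the knockout). The median change was -0.04 and -0.02, beside 0.02 and 0.01 for all transcripts. Neutrophil and stromal markers fell in the same comparison, as given above, and their part in it was not tested.

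A930003A15Rik, a long non-coding RNA, fell most in starvation and rose at low oxygen. It read -0.59, -0.36 and -0.20 in wild-type controls, 0.43, -0.07 and 0.70 at low oxygen and -1.92, -1.65 and -1.83 when starved, and in the knockout -0.33, -0.40 and -0.57, then 0.66, 0.37 and 0.53, then -1.58, -1.67 and -1.81. The 3 conditions were apart in both genotypes. Starvation changed it by -1.42 ± 0.17 (adjusted p 5.54e-05) and -1.25 (0.000135), and low oxygen by 0.74 (0.00269) and 0.95 (0.000339) by limma. Its second probe gave -1.83 and -1.64 in starvation and 1.21 and 1.22 at low oxygen. The neighbouring gene Klhl6, which acts in B cell signalling, changed by 0.26 and 0.27 in starvation and by -0.89 and -0.88 at low oxygen.

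NR_015553, unnamed here, rose most in starvation. It read -4.79, -4.93 and -4.94 in wild-type controls and -3.37, -3.52 and -3.74 when starved, with low oxygen samples at -3.79, -3.73 and -4.23. In the knockout the controls were -4.80, -4.90 and -5.58 and the starved samples -3.74, -3.76 and -4.05. The groups lay apart, and the change was 1.35 ± 0.19 (adjusted p 0.000263) and 1.24 (0.000466) by limma. 2010204K13Rik also rose in both stresses: its wild-type controls were -4.55, -4.36 and -4.76, the low oxygen samples -3.37, -3.44 and -3.23 and the starved samples -3.60, -3.55 and -3.73. Starvation raised it by 0.93 and 0.62 and low oxygen by 1.21 and 1.27. With normexp correction the knockout starvation calls of NR_015553 (0.60, adjusted p 0.222) and 2010204K13Rik (0.30, 0.843) were lost.

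Gpr137b-ps, a pseudogene of a lysosomal membrane protein gene, moved in opposite directions under the stresses. It read 3.105, 3.30 and 3.32 in wild-type controls, 2.96, 2.59 and 2.95 at low oxygen and 4.01, 3.82 and 3.54 when starved. All starved samples lay above and all low oxygen samples below the controls. Starvation raised it by 0.55 (adjusted p 0.0116) and 0.72 (0.00174), and low oxygen changed it by -0.41 (0.0210) and -0.28 (0.106). The wild-type starvation call was lost without replicate 1 of the controls or of the starved cells (0.0529 and 0.0694), and with normexp correction (0.116), and the wild-type low oxygen call without replicate 2 or 3 of the wild-type controls or replicate 2 of wild type at low oxygen (0.0670 to 0.102) and with normexp correction (0.0506). Its parent Gpr137b changed by 0.14 and 0.22 in starvation and did not pass. At low oxygen Gpr137b fell in wild type (-0.26, adjusted p 0.0290 by limma), with -0.09 (0.439) in the knockout. Gm9199, like Gpr137b-ps, rose in starvation, by 0.45 and 0.65, and fell at low oxygen (-0.83 and -0.74).

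Other falls in starvation were those of 2700099C18Rik (-1.08 and -1.07), Gm15421 (-0.86 and -0.85), 5033406O09Rik (-0.76 and -0.46), G630025P09Rik (-0.68 and -0.81) and 4831440E17Rik (-0.52 and -0.51). At low oxygen the same RNAs changed by -1.58 and -1.60, -0.51 and -0.49, 0.64 and 0.82, -0.48 and -0.59, and 1.06 and 1.18, respectively. With normexp correction both starvation calls of 2700099C18Rik (adjusted p 0.548 and 0.202) and the wild-type call of G630025P09Rik (0.238) were lost, and 4831440E17Rik changed by 0.10 (0.793) in wild type, the opposite sign, and by -0.32 (0.746) in the knockout. The knockout call of 5033406O09Rik was lost without replicate 1 or 2 of the knockout controls or replicate 2 or 3 of the starved knockout (0.0684 to 0.0970). At low oxygen the calls of Gm15421 were lost without replicate 3 of the wild-type controls or replicate 2 of wild type at low oxygen (0.0572 and 0.0817) or replicate 3 of the knockout controls or replicate 3 of the knockout at low oxygen (0.0818 and 0.0963), and the wild-type call of G630025P09Rik without replicate 1 of the wild-type controls (0.0554). Without all 3 samples that stood apart the low oxygen calls of Gm15421 in the knockout (0.0957) and of G630025P09Rik in wild type (0.0574) were lost, and with normexp correction those of Gm15421 in the knockout (0.0682) and of G630025P09Rik in both genotypes (0.148 and 0.0815). Among the RNAs that passed in the knockout alone, Gm10941 (1.03), Gm13375 (-0.996) and NR_027897 (-0.92) had the largest changes, with 0.76, -0.50 and -0.54 in wild type. The difference of these responses between genotypes passed for none of these 3. Gm10941's call was lost without replicate 3 of the knockout controls or replicate 1 of the starved knockout (adjusted p 0.0544 and 0.0593), and so was that of NR_027897 (0.0515 and 0.0613), and all 3 knockout calls were lost with normexp correction (adjusted p 0.143 to 0.934). Neat1 read 4.73, 4.53 and 4.48 in starved wild type and changed by -0.30 (0.223) and -0.29 (0.229), not past the threshold. Airn's chosen probe changed by 0.45 (0.0675) and 0.41 (0.0965), while its second probe rose by 0.87 and 0.95.

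Low oxygen and starvation were also compared with each other, since both share the controls in the comparisons above. In wild type 65 of the 219 RNAs were higher at low oxygen and 24 higher in starvation (all transcripts: 38.2% called, 19.8% higher at low oxygen and 18.4% lower). In the knockout the counts were 59 and 25 (all transcripts: 37.2%, with 19.2% higher and 18% lower). A930003A15Rik differed by 2.15 and 2.20, and Gm9199 by -1.28 and -1.39. Dancr and Snhg17 were lower at low oxygen than in starvation (-1.01 and -0.86, and -0.53 and -0.45), while other snoRNA hosts were higher: Snhg3 by 0.60 and 0.53, Snhg1 by 0.51 and 0.42, Snhg16 by 0.50 and 0.36 and Snhg12 by 0.46 and 0.45. Snhg6 and Snhg7 passed in neither genotype. Snhg10 was lower at low oxygen in wild type (-0.47), with -0.23 in the knockout, not past the threshold. Terc differed by -0.94 (adjusted p 0.0209) in the knockout and by -0.47 (0.227) in wild type. In the knockout single samples decided several of these calls: that of Snhg16 was lost without replicate 1 or 2 of the knockout at low oxygen or replicate 1, 2 or 3 of the starved knockout (0.0578 to 0.159), that of Snhg3 without replicate 1 or 2 of the knockout at low oxygen or replicate 2 or 3 of the starved knockout (0.0562 to 0.0917), that of Snhg17 without replicate 3 of the knockout at low oxygen (0.0530) and that of Terc without replicate 2 of the knockout at low oxygen or replicate 1 of the starved knockout (0.0624 and 0.0915). With normexp correction 30 RNAs were higher and 14 lower at low oxygen in wild type, 31 higher and 9 lower in knockout cells, and the calls of Terc, Snhg3, Snhg12, Snhg16 and Snhg17 in the knockout and of Snhg10 in wild type were lost.

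Between genotypes none of the 219 RNAs passed limma's threshold in control, low oxygen or starved cells (0% of all transcripts), nor did any response differ between genotypes. At an unadjusted p under 0.05 by limma the counts were 1, 2 and 1 of 219 in the 3 conditions. Among all transcripts the shares were 1.42%, 1.72% and 1.904%. For the differences of the low oxygen and starvation responses 2 and 2 of 219 passed, beside 1.098% and 1.042% of all transcripts. Every other setting run also gave 0 adjusted calls. The 95% interval of the knockout minus wild type difference lay within 2-fold either way for 215, 213 and 213 of the 219 RNAs in control, low oxygen and starved cells, with a median of 0.35 to either side. For the differences of responses it did so for 196 and 200, with a median of 0.49 to either side. For most of these RNAs a difference of 2-fold would thus lie outside the interval, while smaller differences remain possible.

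**Figure D5:**
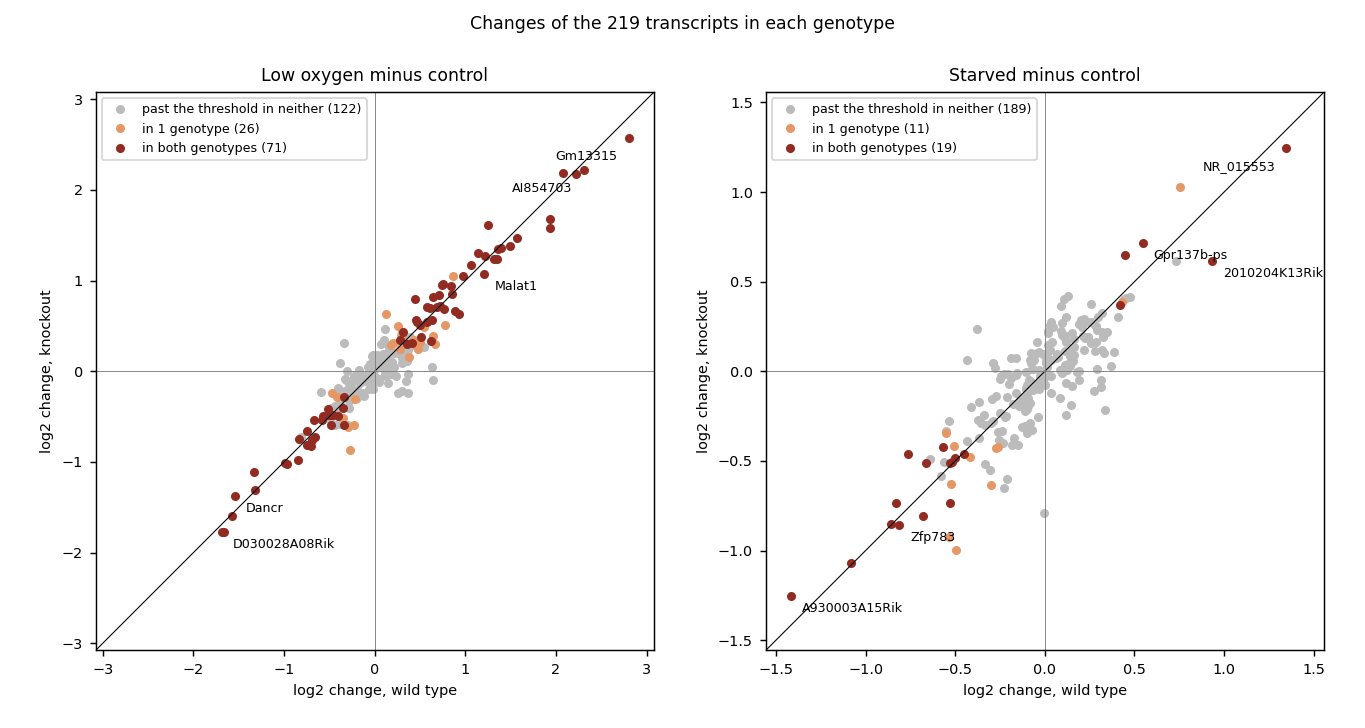
Log2 change of each of the 219 RNAs in wild type (horizontal) and knockout (vertical) at low oxygen (left) and in starvation (right), with the line of equal change and colours for the calls. At low oxygen 71 RNAs passed in both genotypes and 26 in 1, in starvation 19 and 11, and those past the threshold in both lie near the line.

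Wild-type and knockout samples share no sample in these responses. At low oxygen 43 RNAs rose in both genotypes (78.2% of those that rose in wild type and 86% of those in the knockout) and 28 fell in both (93.3% and 84.8%). In starvation 5 rose in both (83.3% and 83.3%) and 14 fell in both (87.5% and 66.7%), and no RNA rose in 1 genotype and fell in the other. The smallest unadjusted p of a difference of responses was that of NR_033219, a dim RNA. It read -4.93, -4.87 and -4.76 in wild-type controls and -5.27, -5.28 and -5.01 at low oxygen, but -5.08, -5.22 and -5.25 in knockout controls and -4.95, -4.96 and -4.72 at low oxygen, so that low oxygen samples lay below the controls in wild type and above them in the knockout. The difference of 0.64 ± 0.22 had a p of 0.00978 and an adjusted p of 1.00 by limma. For Malat1 the low oxygen response differed by -0.13 (95% interval -0.75 to 0.49) and for Dancr by 0.17 (-0.26 to 0.59), knockout minus wild type, neither past the threshold.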

How the data were processed

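RNA of 18 macrophage samples was labelled and hybridised to 20 single-channel Agilent mouse arrays, 2 samples being hybridised to 2 arrays each. The deposited files are scanner output from Agilent Feature Extraction 10.7.3.1, per the file headers, in which a spot's intensity is background-subtracted and arrays are not yet normalized to each other. The authors' series table is on a log2 scale, and the submitters' processing notes name limma without a version. The label field names biotin and the labelling protocol Cy3.

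Each array's log2 processed signal was centred on its 75th percentile, arrays of 1 sample were averaged, and spots marked as outliers were left out. These were 166 to 390 of 43020 spots an array. After averaging, 0.115% of the sample values of the tested transcripts were missing. The probe with the highest mean signal stood for each accession, and accessions were named through RefSeq (188 of 219). A transcript was tested when well above background in at least 3 samples with at least 2 values in each group. For 2 of the 219 RNAs 1 value was missing and the fit dropped that sample. limma 3.58.1 in R 4.3.3 fitted the 6 groups' means to all samples (residual degrees of freedom 12, prior 2.49) in 11 comparisons. P-values are two-sided and adjusted by Benjamini and Hochberg over 21217 transcripts. The script was checked on simulated data. For arrays, their number limits the precision. Whether same-numbered samples share a mouse is not given, and p-values treat the samples as independent.

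Alternatives were normexp background correction, quantile normalization, the authors' table, filters on dim probes, single arrays, slide and replicate blocks, and leaving out samples. Normexp was run on the median spot signal, the only raw signal used here.

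Named RNAs were the 8 largest rises and falls of each stress comparison among those past the threshold with groups apart, all snoRNA and microRNA hosts, a list of well-studied RNAs, and the smallest p of each genotype comparison. Opposite-strand RNAs, pseudogenes with a parent, neighbouring genes and other snoRNA carriers were added. The members and lists were chosen with earlier results of these data known. Promoter, host and microRNA sequences are from RefSeq (GRCm38.p6), where 98 of the 219 RNAs had a promoter entry. The array's own design was built on mm9, so no probe coordinates are given.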

Additional observations from a re-analysis of the deposited data

How the results depend on the processing

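Of the settings run, normexp moved the counts most. It took the median spot signal and median background, with an offset of 50, in place of the scanner's processed signal, so several choices changed together. With it the number of the 219 RNAs past the threshold was 35 and 33 at low oxygen (85 and 83 otherwise), 9 in the starved knockout (27), and 44 and 40 for low oxygen minus starved (89 and 84), in wild type and knockout. For starved wild type it was 15 (22). The matching shares of all transcripts are not given, so whether these drops are particular to the 219 RNAs cannot be told. Rising RNAs made up 72.7% of the low oxygen calls of the knockout with normexp and 60.2% without. This correction moved the median of all transcripts by starvation in wild type to 0.19 and that of low oxygen minus starved in wild type to -0.23, and leaving out the filter on dim probes moved the median at low oxygen in wild type to 0.21. The cause was not tested. Every other setting run gave counts within 1.5 times. Quantile normalization gave 83, 87, 25 and 27 for low oxygen and starvation in wild type and knockout, and the authors' deposited values gave 80, 82, 23 and 26. A slide block gave 74, 79, 20 and 26, and within the slides that hold both groups all called RNAs kept their direction, apart from 6 of 83 at low oxygen in the knockout. For low oxygen in wild type that rests on 1 slide, with 1 sample of each group, and otherwise on 3 slides.

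Leaving out 1 sample at a time gave 68 to 86, 70 to 86, 15 to 27 and 18 to 30 in these 4 comparisons, 0 to 0 in the genotype comparisons and 67 to 96 and 63 to 90 for low oxygen minus starved. Of 145 calls of named RNAs followed through 29 alternatives, 80 passed under all of them, 116 under all but normexp, and 59 were lost under normexp. Among these, 4831440E17Rik reversed in starved wild type (0.10, adjusted p 0.793). The deviations of same-numbered samples correlated by -0.33 to 0.48 (median 0.054). For different numbers the correlations were -0.39 to 0.30 (median -0.034). Correlations this weak cannot tell whether same-numbered samples share a mouse. A replicate block gave 85, 85, 24 and 32 calls, 92 and 87 for low oxygen minus starved, and 0 between genotypes. Dim probes near the median background signal of 20 to 25 limit the size of a measured fall.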
